A study of Mus musculus with 12 samples.

Results

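The genes described here encode proteins with which enterocytes, the absorptive cells of the intestine, take up dietary lipid and pack it into chylomicrons. They were chosen by name, as the rows of the deposited tables for Cd36, Fabp1, Fabp2, Mogat2, Dgat1, Mttp, Apob, Apoa1, Apoa4 and Apoc3, which are 10 of 54532 genes. The study asked how an intestinal enhancer of Ctnnb1, the gene of β-catenin, acts on the normal and the tumor-bearing intestine. RNA-seq of 12 libraries was compared in 2 tissues. Small intestinal crypts came from untreated adult mice, 3 wild-type and 3 Ctnnb1Δi.enh, labelled ieCtnnb1KO, which are homozygous for a germline CRISPR/Cas9 deletion of that enhancer. Colon tumors came from untreated adult mice, 3 with the ApcMin/+ allele, a truncating mutation in a copy of Apc, and 3 Ctnnb1Δi.enh;ApcMin/+ with both alterations. All mice were kept on a C57BL/6 background. The deletion is present in every cell of the animal and not in the epithelium alone. Crypts were shaken off the tissue after EDTA treatment and passed through a filter that holds back villi. The study's legends count 3 mice in each group, so the libraries of a group are taken as separate animals.

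Lipid absorption follows a fixed route through the enterocyte. Fatty acids and monoacylglycerol from the lumen enter the cell, are bound by fatty acid binding proteins and are joined again to triglyceride at the endoplasmic reticulum. The microsomal transfer protein loads this lipid onto apolipoprotein B, and the resulting chylomicron, which also carries smaller apolipoproteins, leaves towards the lymph. The genes of this route belong mainly to the mature absorptive cells of the small intestinal villus.

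The deposited values are FPKM, fragments per kilobase of gene scaled to library depth. Fragments assigned to genes, recovered from the steps between FPKM values, numbered 14457896 to 16074777 in wild-type crypts (median 16042558), 14685020 to 15819430 in Ctnnb1Δi.enh crypts (median 15717741), 14648696 to 16156712 in ApcMin/+ tumors (median 15895487) and 16041000 to 16143130 in Ctnnb1Δi.enh;ApcMin/+ tumors (median 16064312). As a check of the labels, Ctnnb1 itself was at an FPKM of 121, 134 and 123 in wild-type crypts and 102, 104 and 105 in Ctnnb1Δi.enh crypts. In tumors it was at 299, 363 and 358 in ApcMin/+ and 279, 248 and 250.2 in Ctnnb1Δi.enh;ApcMin/+ libraries. In both tissues each knockout library lay below each control library, as the labels would have it.

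The crypt libraries held the lipid absorption genes at high levels. Together the 10 genes took 0.586%, 0.732% and 1.23% of the fragments of wild-type replicates 1, 2 and 3, and 1.10%, 0.849% and 1.16% of those of Ctnnb1Δi.enh replicates 1, 2 and 3. In wild-type crypts the order of mean FPKM was Fabp2, Apoa1, Fabp1, Apoa4, Mttp, Dgat1, Apoc3, Mogat2, Apob and Cd36. The ranges of neighbours in this order overlapped, except that the lowest Apoa1 value was above the highest of Fabp1 and the lowest Apob value above the highest of Cd36. The order in Ctnnb1Δi.enh crypts was the same but for Mttp, which stood above Apoa4. In each crypt library the 9 genes other than Cd36 ranked at the 96.8th percentile or higher of the genes with an FPKM above 0.

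**Figure D1:**
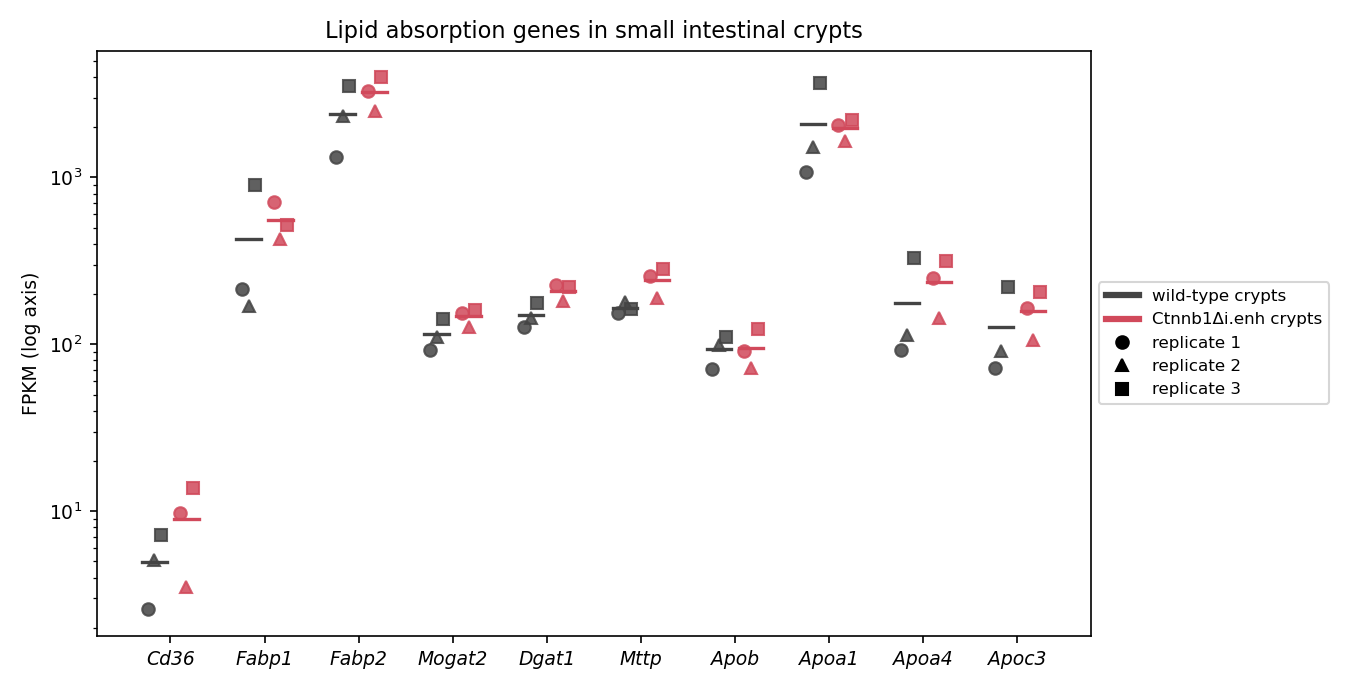
FPKM of the 10 lipid absorption genes in crypts on a log axis, ordered by role, with a symbol for each replicate, grey for wild-type and red for Ctnnb1Δi.enh, and a line at each group mean. Wild-type replicate 1 is the lowest library for 9 of the 10 genes, and the groups are apart only for Dgat1 and Mttp.

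In the test across genes, limma on log2(FPKM + 0.5), 14176 genes whose mean FPKM over the 6 crypt libraries reached 0.5 were compared, among them all 10 lipid absorption genes. None of the 10 had a Benjamini-Hochberg adjusted p under 0.05 (0% of all tested genes, lowest 0.728), and none had with voom, another method in limma. At an unadjusted p under 0.05 there were 2 of the 10, against 5.85% of all tested genes. Both were higher in Ctnnb1Δi.enh crypts, against 3.48% of all tested genes, and 0 were lower, against 2.36%. The groups did not overlap for the same 2 genes, Dgat1 and Mttp, each higher in Ctnnb1Δi.enh crypts, against 6.79% of all tested genes. No lipid absorption gene lay lower without overlap, against 5.15%. The fold change was above 0 for 10 of 10 genes, against 52.8% of all tested genes, and its median was 0.51 (log2), against 0.01 for all tested genes. It was above 0 for 10 of 10 also after rescaling to the same total. It was above 0 for 9 after rescaling without the 50 highest genes, with quantile normalization or with pan-epithelial markers made equal, where Apob was below 0, and for 8 with villus markers made equal, where Apoa1 was below 0 too. Since the tissue was measured in bulk, more or fewer enterocytes and more or less RNA per enterocyte cannot be told apart.

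The uptake of long-chain fatty acids is a role of Cd36, a membrane receptor. Its FPKM was 2.59, 5.10 and 7.18 in wild-type replicates 1, 2 and 3 and 9.80, 3.52 and 13.7 in Ctnnb1Δi.enh replicates 1, 2 and 3. Knockout replicates 1 and 3 were above the wild-type libraries and knockout replicate 2 was among them. The log2 fold change of Cd36 was 0.72 with a standard error of 0.51 (limma, adjusted p = 0.896; exact two-sided permutation test, p = 0.4), and the means were 4.96 ± 2.30 and 9.004 ± 5.13 (SD, n = 3 each). With a library left out, its log2 fold change ran from 0.34 (without knockout replicate 3) to 1.24 (without knockout replicate 2). Without knockout replicate 2 the groups did not overlap (limma, unadjusted p = 0.0187 and adjusted p = 0.895). Cd36 is also a gene of fat, capillary and macrophage cells. In crypts the 7 adipocyte markers summed to an FPKM of 5.92, 6.57 and 11.2 in wild-type and 9.68, 5.89 and 17.1 in Ctnnb1Δi.enh replicates 1, 2 and 3. Nearly all of this was Cidec, a lipid droplet gene, highest in knockout replicate 3 as Cd36 was, while Adipoq, Lep, Plin1 and Retn were listed at 0 in all 6 libraries. The 7 endothelial markers summed to 2.67, 2.49 and 2.73 in wild-type and 2.26, 2.07 and 2.40 in Ctnnb1Δi.enh crypts, led by Esam, with Gpihbp1 at 0 in all 6 libraries. The macrophage markers summed to an FPKM of 24.3, 20.47 and 30.1 in wild-type and 18.4, 25.1 and 9.84 in Ctnnb1Δi.enh crypts, with Lyz2 as their most abundant gene, so that their lowest library was the one with the highest Cd36. The part of these cells in the crypt level of Cd36 was not tested.

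Fabp1 and Fabp2 encode the liver-type and the intestinal fatty acid binding protein, which carry fatty acids through the cytoplasm. The FPKM of Fabp1 was 214, 169.9 and 901 in wild-type replicates 1, 2 and 3 and 707, 428 and 520.5 in Ctnnb1Δi.enh replicates 1, 2 and 3. Wild-type replicate 3 was the highest and the other wild-type libraries the lowest of the 6, so that the knockout libraries lay between them. The fold change, a difference of mean log2 values, was 0.75 with a standard error of 0.61 (limma, adjusted p = 0.901). The means of FPKM itself were 428 ± 410.0 and 552 ± 142 (SD, n = 3 each), a smaller ratio of 1.29. Without wild-type replicate 3 the log2 fold change was 1.50, and without wild-type replicate 2 it was 0.30. These were the ends of its range when each library was left out.
For Fabp2, the most abundant of the 10 genes, FPKM was 1333, 2327 and 3503 in wild-type and 3280.1, 2485 and 3974 in Ctnnb1Δi.enh replicates 1, 2 and 3. The groups overlapped, with wild-type replicate 1 lowest and knockout replicate 3 highest. The difference of mean log2 values was 0.53 with a standard error of 0.40 (limma, adjusted p = 0.896). The means of FPKM itself were 2388 ± 1086 and 3246.5 ± 745 (SD, n = 3 each), with a ratio of 1.36. Leaving out each library moved the log2 fold change of Fabp2 between 0.16 and 0.86. With quantile normalization the groups did not overlap, and the log2 fold change was 0.90 (limma, unadjusted p = 0.00765 and adjusted p = 0.944). Of all tested genes, 5.375% lay higher without overlap under that setting, and 4.94% had an unadjusted p under 0.05. No other scaling left Fabp2 without overlap. The tables give Fabp1 553 and Fabp2 965 bases, and short genes differed between libraries as a class. Among 263 genes under 1000 bases whose mean FPKM reached 5, the median deviation from the gene's own mean was -0.17, -0.19 and 0.23 (log2) in wild-type and 0.03, 0.10 and -0.07 in Ctnnb1Δi.enh replicates 1, 2 and 3. Its part in the values of the short genes was not tested.

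Mogat2 and Dgat1 act in the synthesis of triglyceride at the endoplasmic reticulum, where the first adds a fatty acid to monoacylglycerol and the second completes the molecule. The FPKM of Dgat1 was 126, 145 and 177 in wild-type and 226, 181 and 219 in Ctnnb1Δi.enh replicates 1, 2 and 3. All knockout libraries were above all wild-type libraries, by a narrow margin between knockout replicate 2 and wild-type replicate 3. The log2 fold change was 0.49 with a standard error of 0.18 (limma, unadjusted p = 0.0275 and adjusted p = 0.806). An exact two-sided permutation test gave p = 0.1, its lowest possible value with 3 libraries a group. The means of FPKM itself were 149 ± 25.8 and 209 ± 24.2 (SD, n = 3 each).
Mogat2 was at an FPKM of 92.3, 110.3 and 141 in wild-type and 155, 126 and 161 in Ctnnb1Δi.enh replicates 1, 2 and 3. Only knockout replicate 2 fell within the wild-type range. Its log2 fold change was 0.37 with a standard error of 0.19 (limma, adjusted p = 0.860). Without wild-type replicate 1 that value was 0.23, and without wild-type replicate 3 it was 0.54. An exact two-sided permutation test of all 6 libraries gave p = 0.2.

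Mttp encodes the large subunit of the microsomal triglyceride transfer protein, and Apob the structural protein of the chylomicron. Mttp was at an FPKM of 154, 179.9 and 164 in wild-type and 257, 188 and 284 in Ctnnb1Δi.enh replicates 1, 2 and 3. The groups did not overlap, and the lowest knockout library was close to the highest wild-type library. The log2 fold change was 0.53 with a standard error of 0.19 (limma, unadjusted p = 0.0254 and adjusted p = 0.806). An exact two-sided permutation test gave p = 0.1. The means of FPKM itself were 166 ± 13.3 and 243 ± 49.5 (SD, n = 3 each). Neither Mttp nor Dgat1 stayed without overlap when log2 values were shifted to equal pan-epithelial or equal villus enterocyte markers, and Mttp did not with quantile normalization. Of all tested genes, 6.79% lay higher without overlap as designed. That share was 2.14% with pan-epithelial and 0.33% with villus markers equal, and 5.375% with quantile normalization. With pan-epithelial markers equal the log2 fold change was 0.47 for Mttp and 0.43 for Dgat1, with villus markers equal 0.32 and 0.28, and with quantile normalization 0.44 and 0.35. The unadjusted p in limma was 0.05 or more for both genes under these 3 settings. It was under 0.05 for 4.13%, 1.95% and 4.94% of all tested genes there, against 5.85% as designed.
Apob, the product of which Mttp loads, did not share this pattern. Its FPKM was 70.8, 99.0 and 111 in wild-type and 91.6, 72.0 and 123 in Ctnnb1Δi.enh replicates 1, 2 and 3. The ranges of the groups coincided closely, with a log2 fold change of 0.02 and a standard error of 0.25 (limma, adjusted p = 0.996). The sign of that value turned under several settings, which are given further on.

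Apoa1, Apoa4 and Apoc3 encode apolipoproteins of the particle surface, and lie side by side on chromosome 9 of GRCm38 within 14880 bases, from 46228580 to 46243459. Apoa1 was at an FPKM of 1070.2, 1520.1 and 3692 in wild-type and 2060.2, 1659.85 and 2209 in Ctnnb1Δi.enh replicates 1, 2 and 3. The knockout libraries lay inside the range of the wild-type libraries, and the log2 fold change was 0.11 with a standard error of 0.46 (limma, adjusted p = 0.987). The means of FPKM itself had the other order, 2094 ± 1402 in wild-type and 1976 ± 284 in knockout crypts (SD, n = 3 each), so the direction of Apoa1 depends on averaging logarithms.
For Apoa4 the values were 92.7, 114 and 327 in wild-type and 251, 143 and 315 in Ctnnb1Δi.enh replicates 1, 2 and 3. Those of Apoc3 were 72.6, 91.0 and 219 in wild-type and 166, 105 and 205 in Ctnnb1Δi.enh replicates 1, 2 and 3. In all 3 genes of the cluster wild-type replicate 3 was the highest library and wild-type replicate 1 the lowest. The log2 fold change was 0.57 with a standard error of 0.51 for Apoa4 (limma, adjusted p = 0.909). For Apoc3 it was 0.43 with a standard error of 0.44 (limma, adjusted p = 0.916). Without wild-type replicate 1 these values were 0.22 and 0.12, and without wild-type replicate 3 they were 1.12 and 0.91.

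**Figure D2:**
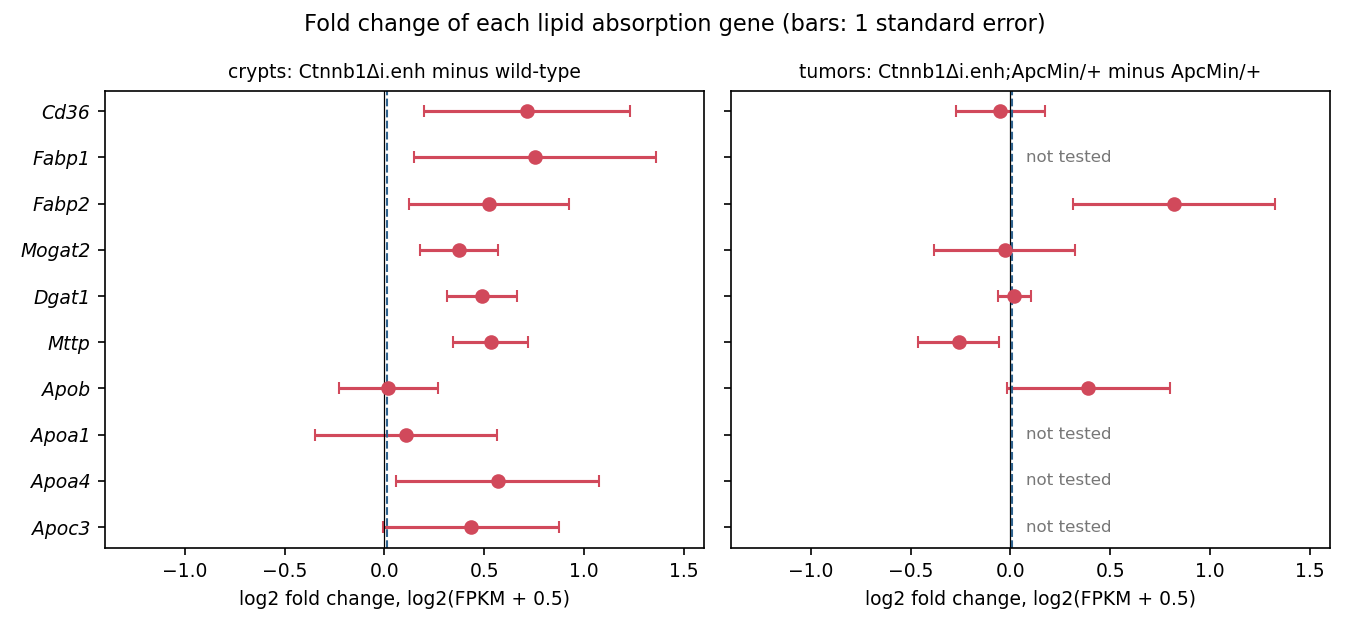
Log2 fold change of each lipid absorption gene with 1 standard error, in crypts on the left and tumors on the right, and the median of all tested genes as a dashed line. In crypts all 10 values are above 0, from 0.02 for Apob to 0.75 for Fabp1 (Apob and Apoa1 turn under other scalings). In tumors 3 of 6 are above 0 (Dgat1 and Mogat2 turn under other scalings).

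The spread between libraries of the same group was wide for most of these genes. The standard deviation of log2(FPKM + 0.5) within groups had a median of 0.61 over the 10 genes, against 0.22 over all tested genes. It was 0.96 for Fabp1, which is the 97.1th percentile of all tested genes, 0.82 for Cd36 and 0.80 for Apoa4. It was near the median of all tested genes for Dgat1 (0.21, the 46.9th percentile) and Mttp (0.23, the 53.1th percentile), the genes whose groups did not overlap. Without wild-type replicate 3 the median spread was 0.35, and with all log2 values shifted to equal villus enterocyte markers it was 0.36.

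**Figure D3:**
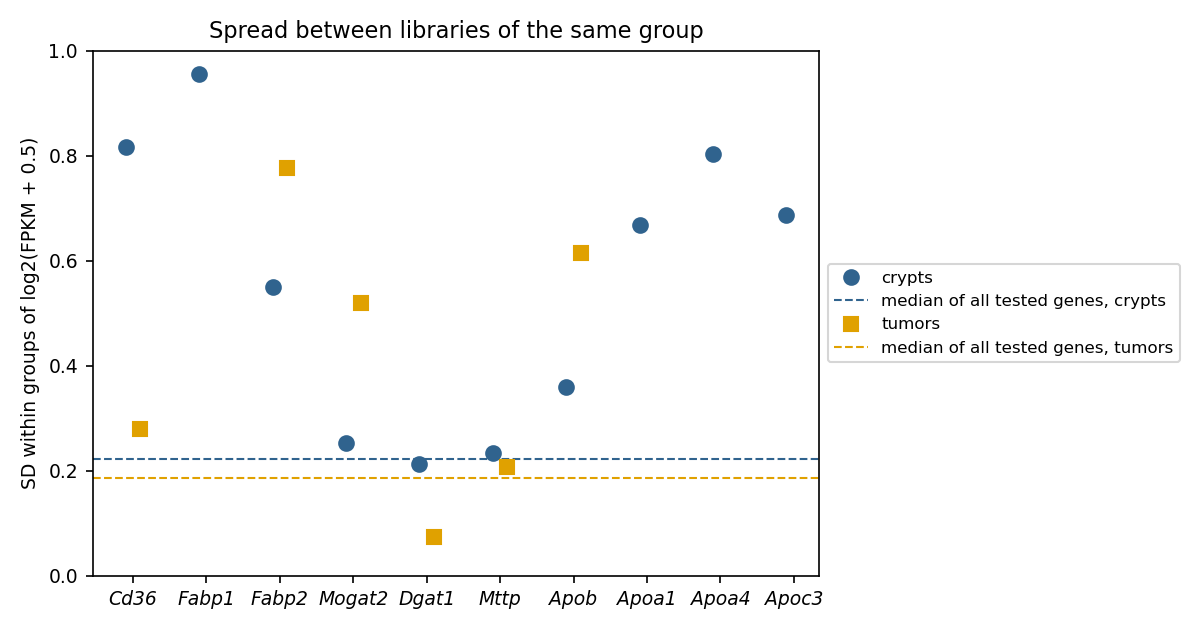
Standard deviation of log2(FPKM + 0.5) within groups for each lipid absorption gene, in crypts as circles and in tumors as squares where the gene was tested, with dashed lines at the medians of all tested genes (0.22 in crypts and 0.19 in tumors). In crypts 9 of 10 genes are above the dashed line, and Dgat1 is below it.

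Wild-type replicate 1 was the lowest library for 9 of the 10 genes and wild-type replicate 2 for the remaining one, Fabp1. Knockout replicate 3 was the highest for 5 and wild-type replicate 3 for 4. Averaged over the 10 genes, the log2 deviation from the mean of the 6 libraries was -0.74, -0.38 and 0.44 in wild-type and 0.36, -0.20 and 0.52 in Ctnnb1Δi.enh replicates 1, 2 and 3. Leaving out wild-type replicate 3 left 8 of 10 genes higher without overlap, against 13.1% of all tested genes, and 6 at an unadjusted p under 0.05, against 7.65% (limma), with a median log2 fold change of 0.74. Leaving out wild-type replicate 1 brought that median to 0.22, with 2 of 10 genes higher without overlap, against 15.5% of all tested genes, and 0 at an unadjusted p under 0.05, against 9.48% (limma). The same counts, 2 and 0, were found without knockout replicate 1, against 9.57% and 3.26% of all tested genes, and without knockout replicate 3, against 12.4% and 5.33%. They were 2 and 1 without wild-type replicate 2, against 10.5% and 4.16%, and 4 and 3 without knockout replicate 2, against 11.6% and 4.89%.

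The 16 villus enterocyte markers, of which 16 were in the table and none at 0, moved partly with these genes. Their summed FPKM was 2441, 3779.8 and 4436 in wild-type and 3722, 2824 and 5165 in Ctnnb1Δi.enh replicates 1, 2 and 3, with Anpep as the most abundant gene. The defining brush border gene Sis was at 262, 305 and 379 in wild-type and 336, 244 and 545 in Ctnnb1Δi.enh crypts. Wild-type replicate 1 was lowest and knockout replicate 3 highest in the sum. In the sum of the lipid absorption genes wild-type replicate 1 was lowest too, but wild-type replicate 3 was highest (9242, against 8024 in knockout replicate 3). In the sum of the villus markers wild-type replicate 2 was above knockout replicates 1 and 2, while in the mean of their log2 values it was above knockout replicate 2 only. The mean log2 level of the lipid absorption genes minus that of the villus markers was 1.07, 0.77 and 1.32 in wild-type and 1.49, 1.38 and 1.01 in Ctnnb1Δi.enh replicates 1, 2 and 3, which overlapped. With the villus markers made equal, the median fold change of the 10 genes was 0.30 (log2) while that of all tested genes was -0.20. The part of villus tissue in the values of the lipid absorption genes was not tested further.

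Other marker lists differed between the same libraries. The 10 stem and cycling crypt markers summed to an FPKM of 1319, 1070.0 and 784 in wild-type and 1308, 1138 and 1008 in Ctnnb1Δi.enh replicates 1, 2 and 3, led by Olfm4, so that wild-type replicate 3, high in lipid absorption genes, was lowest. The 5 ileum markers, led by Fabp6, the ileal bile acid binding protein, summed to 238, 1305 and 2938 in wild-type and 859.7, 788 and 872 in Ctnnb1Δi.enh crypts. The 6 proximal small intestine markers, led by Adh6a, summed to 168, 148 and 244 in wild-type and 335, 194 and 312 in Ctnnb1Δi.enh crypts. They shared Lct with the villus list. Of the 6, 5 had a fold change above 0, against 52.8% of all tested genes. The 2 without overlap, Adh6a and Gata4, lay higher in the knockout, against 6.79%. Adh6a had a log2 fold change of 0.80 (limma, unadjusted p = 0.00589 and adjusted p = 0.757). The 8 Paneth cell markers, led by Defa24, summed to 19312.5, 28267 and 53056 in wild-type and 21236, 18356.5 and 21191 in Ctnnb1Δi.enh crypts. Wild-type replicates 1 and 3 thus stood at opposite ends for the sum of the ileum list, as they did for Apoa1, Apoa4 and Apoc3. Wild-type replicate 2 was low for these apolipoprotein genes, but near replicate 3 in the mean log2 level of the ileum list (6.27 and 6.37). Slc10a2, Slc51a and Fgf15 were highest in wild-type replicate 2, and Fabp6 and Slc51b in wild-type replicate 3. Between the groups, the fold change was below 0 for 5 of 5 ileum markers. The median log2 fold change was -0.15 for the ileum list, 0.42 for the proximal list and 0.51 for the lipid absorption genes. How much of each gene's spread or fold change went with the part of the intestine sampled was not tested.

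**Figure D4:**
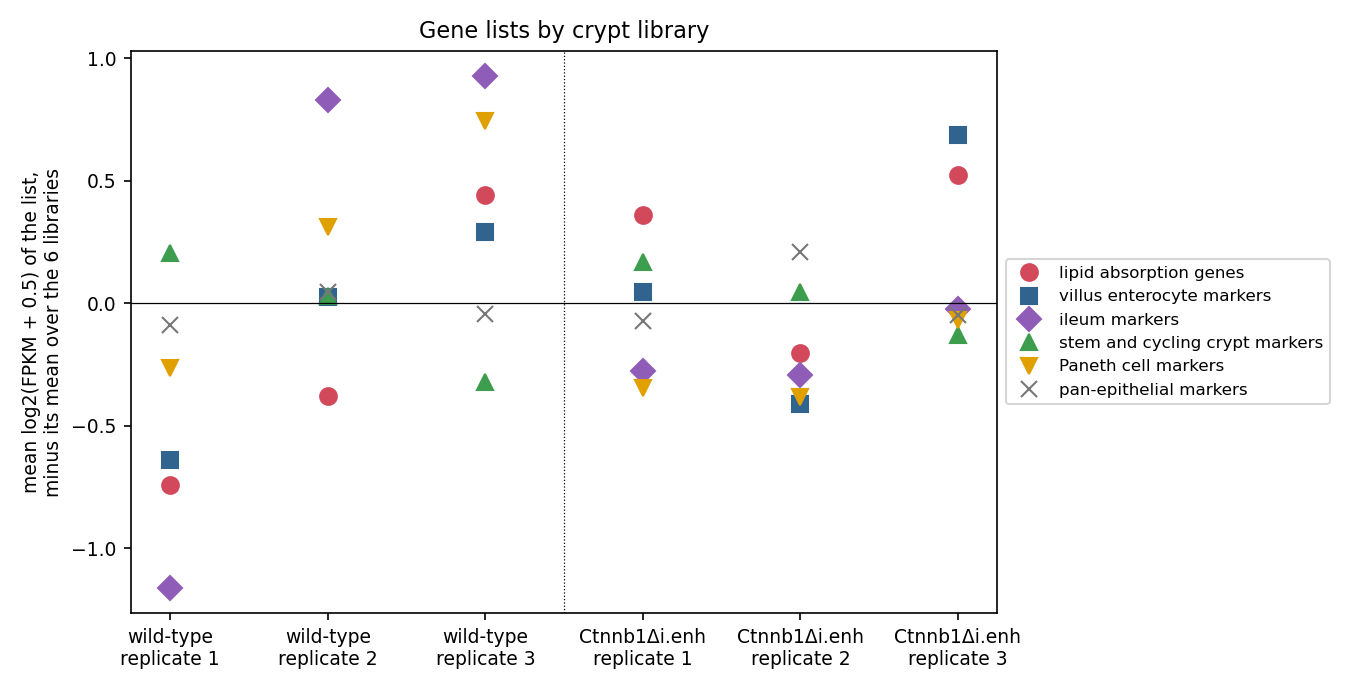
Mean log2(FPKM + 0.5) of the lipid absorption genes and of 5 marker lists in each crypt library, minus the mean of the list over the 6 libraries. The lipid absorption genes are lowest in wild-type replicate 1 (-0.74) and highest in knockout replicate 3 (0.52), while the stem and cycling crypt markers are lowest in wild-type replicate 3.

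The remaining genes of the route were taken from lists of the steps, for which the values of all tested crypt genes are 52.8% above 0, 3.48% higher at an unadjusted p under 0.05, and a median of 0.01. Of 8 genes of lipid uptake and activation, all tested in crypts, 7 had a fold change above 0 and 1 had an unadjusted p under 0.05, higher in Ctnnb1Δi.enh crypts (limma; median log2 fold change 0.27). That gene was Acsl5, which activates fatty acids to acyl-CoA, at an FPKM of 119, 129 and 165 in wild-type and 201, 154 and 243 in knockout crypts, with overlap. Of 12 genes of triglyceride and sterol ester synthesis, 10 were above 0 and 1 had an unadjusted p under 0.05 (Plpp1, a lipid phosphate phosphatase), with a median of 0.21.
Of 15 genes of chylomicron assembly and secretion, 14 were tested, 13 were above 0 and 3 had an unadjusted p under 0.05, all higher in Ctnnb1Δi.enh crypts, with a median of 0.32. Tm6sf2, which acts in the lipidation of apolipoprotein B particles, was at an FPKM of 80.2, 94.1 and 102 in wild-type and 134, 114 and 137 in knockout crypts, without overlap (limma, log2 fold change 0.47, standard error 0.15, adjusted p = 0.797). The others were Cideb, of the lipid droplet and particle surface, and Surf4, a cargo receptor for export from the endoplasmic reticulum. No gene of these lists had an adjusted p under 0.05.
Of 6 regulators, among them the factors Hnf4a and Hnf4g that act on enterocyte genes, 4 were above 0 and 0 had an unadjusted p under 0.05. Hnf4a was at an FPKM of 154, 140.0 and 162 in wild-type and 144, 147 and 143 in knockout crypts, a narrow range beside that of the lipid absorption genes in the same libraries.

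The genes whose profile over the 6 crypt libraries was nearest to the mean of the 10 were found by the root mean square difference of centred log2 values, among 4508 genes whose mean FPKM reached 10. They were Fmo5 (0.10), Hagh (0.12), Tmem86b (0.12), Gpt (0.13) and Abcc2 (0.13). The nearest of the 10 genes to their own mean was Fabp2 (0.14) and the farthest Fabp1 (0.52). Fmo5 was at an FPKM of 15.3, 19.3 and 32.3 in wild-type and 36.7, 22.4 and 42.3 in knockout replicates 1, 2 and 3.

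The sequence before the starts of the 10 genes was examined for motifs. RefSeq promoter windows of GRCm38.p6, 250 bases before to 50 after a start, were matched for 7 of the 10 genes, and none was listed for Apoc3, Dgat1 and Mogat2. Searched on both strands, the HNF4 motif CAAAGTCCA was in 0 of the 7 windows and in 0.475% of all 32851 windows. The core of nuclear receptor elements, AGGTCA, was in those of Fabp1 and Cd36 (16.3% of all windows), the TATA-type motif TATAAA in those of Apob and Fabp1 (13.6%), the GATA motif AGATAA in 0 (11.2%), and GTTAAT, part of the HNF1 motif, in that of Fabp1 (7.10%). The windows of Fabp1 and Apob are shown as those with a TATA-type match, up to the base before the earlier of the RefSeq start and the start in the deposited tables, with matches in capitals. They lie at chr6:71199629-71199826 and chr12:7977427-7977647, both on the plus strand and upstream of the gene. The TATAAA and a second AGGTCA of Fabp1 lie past the bases shown, and the window of Cd36, with an AGGTCA, is not shown. A match describes letters in this window and not a bound site.
Fabp1: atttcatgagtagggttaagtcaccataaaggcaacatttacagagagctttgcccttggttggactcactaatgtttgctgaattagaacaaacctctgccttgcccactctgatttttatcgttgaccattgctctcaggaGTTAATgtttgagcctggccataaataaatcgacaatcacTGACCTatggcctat
Apob: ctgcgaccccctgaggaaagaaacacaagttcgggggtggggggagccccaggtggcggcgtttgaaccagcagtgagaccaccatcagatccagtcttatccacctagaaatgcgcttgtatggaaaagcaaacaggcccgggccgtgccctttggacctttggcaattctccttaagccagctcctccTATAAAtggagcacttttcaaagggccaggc

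In colon tumors the lipid absorption genes were low or absent, except Dgat1. The 10 genes took 0.0100%, 0.00787% and 0.00821% of the fragments of ApcMin/+ replicates 1, 2 and 3, and 0.00830%, 0.0123% and 0.00807% of those of Ctnnb1Δi.enh;ApcMin/+ replicates 1, 2 and 3. The tumor and crypt tables were normalized separately, so their levels stand side by side with no test. Of the 10 genes, 6 reached the mean FPKM of 0.5 needed for the test, and Fabp1, Apoa1, Apoa4 and Apoc3 did not. The colonocyte markers were divided between the tissues. Hoxb13 was listed at 0 in all crypt libraries and was at an FPKM of 70.1, 99.2 and 93.2 in ApcMin/+ and 108, 82.7 and 128 in Ctnnb1Δi.enh;ApcMin/+ tumors. Car4, Slc26a3 and Ms4a12 of the same list had a mean FPKM of 70.8, 17.8 and 36.7 in crypts and 8.84, 3.47 and 9.69 in tumors; they were chosen after their values were seen. The small intestinal brush border gene Sis was at most at 0.043 in any tumor.

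**Figure D5:**
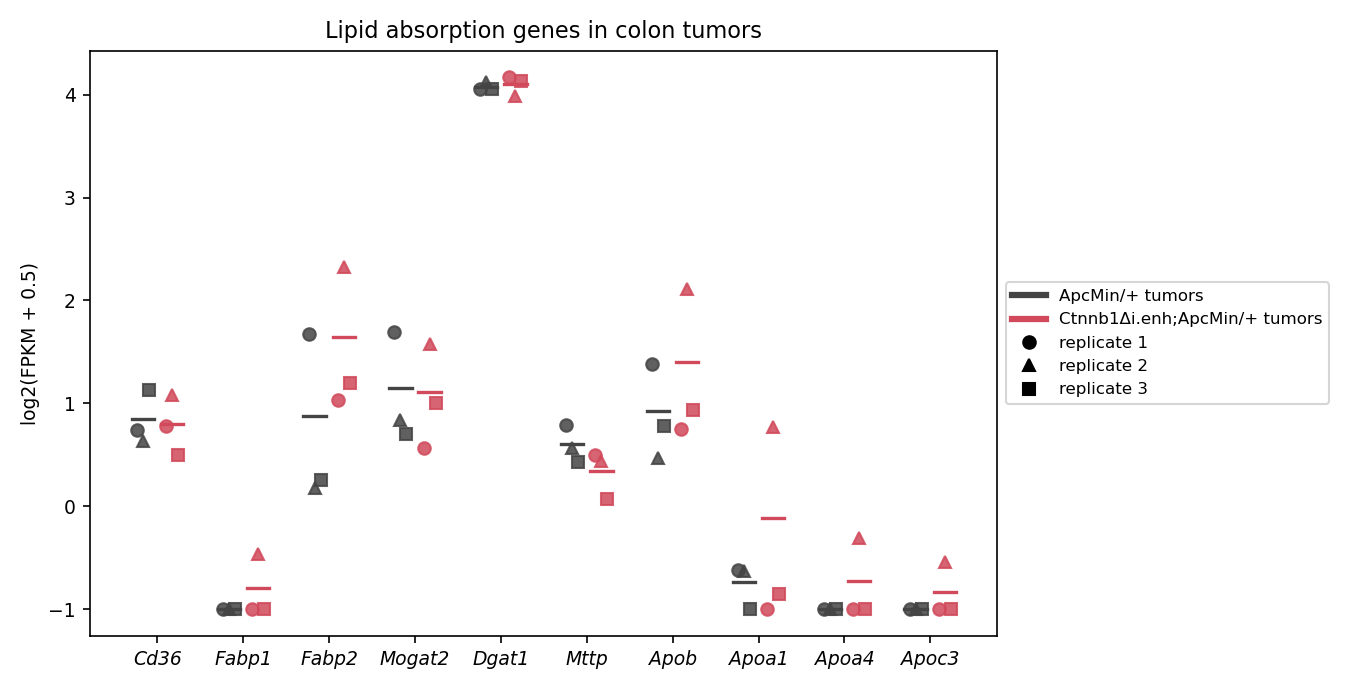
log2(FPKM + 0.5) of the 10 lipid absorption genes in tumors, with a symbol for each replicate, grey for ApcMin/+ and red for Ctnnb1Δi.enh;ApcMin/+, and a line at log2(mean FPKM + 0.5) of each group; -1 stands for an FPKM of 0. Knockout replicate 2, the red triangle, is highest for Fabp2, Apob, Apoa1, Apoa4, Apoc3 and Fabp1.

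None of the 6 tested genes had an adjusted p under 0.05 (limma over 16743 genes, 0% of all tested genes, lowest 0.269), and voom called none. At an unadjusted p under 0.05 there were 0 of 6, against 14.5% of all tested genes. These were 8.46% with the higher and 5.997% with the lower values in Ctnnb1Δi.enh;ApcMin/+ tumors. The groups overlapped for all 6, against 11.4% of all tested genes without overlap and higher in the knockout and 10.6% lower. Without ApcMin/+ replicate 1, Fabp2 lay higher without overlap, against 19.55% of all tested genes (limma, unadjusted p = 0.0207 and adjusted p = 0.233). Without knockout replicate 2, Dgat1 lay higher without overlap, against 20.03%. Without ApcMin/+ replicate 3, 1 of the 6 lay lower without overlap, against 13.8%. Leaving out any other library left all 6 overlapping. The fold change was above 0 for 3 of the 6, against 51.3% of all tested genes. Their median log2 fold change was -0.01, against 0.01 for all tested genes. With pan-epithelial markers made equal it was -0.26, against -0.24 for all tested genes. There 2 of the 6 lay lower in the knockout without overlap, against 36.5% of all tested genes. An unadjusted p under 0.05 was reached by 1, Dgat1, against 29.6% of all tested genes (limma, log2 fold change -0.23, unadjusted p = 0.04001 and adjusted p = 0.154).

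Dgat1, which is used in many tissues, was at an FPKM of 16.1, 17.0 and 16.1 in ApcMin/+ and 17.5, 15.4 and 17.1 in Ctnnb1Δi.enh;ApcMin/+ replicates 1, 2 and 3. It ranked at the 83.3th to 86.1th percentile of the genes above 0 in each library and was even between libraries, with a spread within groups at the 6.90th percentile of all tested genes. Its log2 fold change was 0.02 with a standard error of 0.08 (limma, adjusted p = 0.933), and its sign turned under other scalings.
Mogat2, which acts before it in the enterocyte, was at 2.73, 1.29 and 1.13 in ApcMin/+ and 0.982, 2.48 and 1.50 in Ctnnb1Δi.enh;ApcMin/+ tumors. The highest libraries were ApcMin/+ replicate 1 and knockout replicate 2, so that the groups overlapped, with a log2 fold change of -0.03 and a standard error of 0.35 (limma, adjusted p = 0.977).

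Fabp2 was at an FPKM of 2.69, 0.628 and 0.693 in ApcMin/+ and 1.55, 4.52 and 1.79 in Ctnnb1Δi.enh;ApcMin/+ replicates 1, 2 and 3, from 42, 10 and 10 and from 24, 70 and 27 fragments. Again ApcMin/+ replicate 1 and knockout replicate 2 were highest. The fold change was 0.82 (log2, standard error 0.51; limma, adjusted p = 0.473; exact two-sided permutation test, p = 0.3), and ran from 0.41 without knockout replicate 2 to 1.31 without ApcMin/+ replicate 1.
The same libraries led for Apob, with 2.11, 0.883 and 1.22 in ApcMin/+ and 1.19, 3.82 and 1.42 in Ctnnb1Δi.enh;ApcMin/+ replicates 1, 2 and 3. Its log2 fold change was 0.39 with a standard error of 0.41 (limma, adjusted p = 0.669), and ran from -0.03 without knockout replicate 2 to 0.65 without knockout replicate 1.
Mttp was at 1.22, 0.977 and 0.851 in ApcMin/+ and 0.911, 0.854 and 0.548 in Ctnnb1Δi.enh;ApcMin/+ tumors. Its log2 fold change was -0.26 with a standard error of 0.20 (limma, adjusted p = 0.559). That value ran from -0.34 without knockout replicate 1 to -0.13 without knockout replicate 3. Mttp shares 1521 bases with Trmt10a on the opposite strand, at a mean FPKM of 1.46 in tumors and 0.797 in crypts. Since the use of strand in counting is not given in the sources used here, fragments of the 2 genes cannot be told apart, which weighs on Mttp in tumors. Cd36 was at 1.17, 1.05 and 1.70 in ApcMin/+ and 1.21, 1.61 and 0.911 in Ctnnb1Δi.enh;ApcMin/+ tumors, with overlap and a log2 fold change of -0.05 (limma, adjusted p = 0.934). The endothelial markers, which include Gpihbp1 at 1.04 to 2.43, summed to 43.7, 42.5 and 35.6 in ApcMin/+ and 48.7, 47.1 and 51.5 in Ctnnb1Δi.enh;ApcMin/+ tumors, with Cdh5 as the most abundant gene. The macrophage markers, led by Lyz2, summed to 575, 381 and 605 in ApcMin/+ and 549, 752 and 437 in Ctnnb1Δi.enh;ApcMin/+ tumors. The part of these cells in the tumor level of Cd36 was not tested.

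The apolipoprotein cluster and Fabp1 were seen in tumors almost only in knockout replicate 2. There Apoa1 was at an FPKM of 1.21 (24 fragments), Apoa4 at 0.309 (9 fragments), Apoc3 at 0.184 (3 fragments) and Fabp1 at 0.225 (2 fragments). In the other 5 tumor libraries Apoa4, Apoc3 and Fabp1 had 0 fragments, which allows an FPKM of up to 0.111 for Apoa4, 0.198 for Apoc3 and 0.363 for Fabp1, with 3 fragments as the limit and for counting error only. Apoa1 had 3, 3 and 0 fragments in ApcMin/+ and 0 and 1 in knockout replicates 1 and 3. The values of Apoc3 and Fabp1 in knockout replicate 2 do not exceed this limit in that library, and those of Apoa1 and Apoa4 do.
Knockout replicate 2 also stood apart in cell type markers. The Paneth cell markers summed to an FPKM of 1916, 1975 and 2138 in ApcMin/+ and 2855, 4407.5 and 1643 in Ctnnb1Δi.enh;ApcMin/+ tumors, with Lyz1 as the most abundant gene. The goblet cell markers summed to 908, 819 and 818 and to 1488, 2046 and 1775, with no overlap between the groups, led by Tff3. Each of these 6 genes lay higher in the knockout without overlap, against 11.4% of all tested genes (limma, lowest adjusted p = 0.269). The erythrocyte markers, led by Hbb-bs, summed to 328, 346 and 246 in ApcMin/+ and 680.2, 52.9 and 1115 in Ctnnb1Δi.enh;ApcMin/+ tumors, lowest in knockout replicate 2. Hepatocyte markers, since Apoa1, Apoa4, Apob, Apoc3 and Fabp1 are liver genes too, summed to 94.4, 37.5 and 50.5 in ApcMin/+ and 39.9, 68.9 and 61.3 in Ctnnb1Δi.enh;ApcMin/+ tumors. Their most abundant gene was Alb, at 67.8, 18.1 and 31.0 and at 17.3, 54.7 and 33.9, while Fgb, a defining liver gene, was listed at 0 in all 6 tumors. The libraries high in Alb, ApcMin/+ replicate 1 and knockout replicate 2, were those high in Fabp2, Apob and Mogat2. Ttr, the next in abundance of these markers, was at 22.3, 17.0 and 17.8 in ApcMin/+ and 20.7, 11.8 and 23.5 in Ctnnb1Δi.enh;ApcMin/+ tumors, lowest in knockout replicate 2, so that the list did not move as a whole. Their part in these values was not tested.

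The regulators were not absent from the tumors. Hnf4a was at an FPKM of 72.5, 69.5 and 61.1 in ApcMin/+ and 78.9, 102 and 74.8 in Ctnnb1Δi.enh;ApcMin/+ tumors, without overlap (limma, log2 fold change 0.32, standard error 0.14, adjusted p = 0.361). Hnf4g was at 2.49, 3.27 and 2.67 and at 3.10, 2.11 and 1.56, and Gata4 at most at 0.093. For the lists of the route, the values of all tested tumor genes are 51.3% above 0 and, where the unadjusted p was under 0.05, 8.46% higher and 5.997% lower. The 6 pan-epithelial markers, led by Krt8, all lay higher in the knockout tumors without overlap, against 11.4% of all tested genes. Their median log2 fold change was 0.25, and 1 of the 6 had an unadjusted p under 0.05 (limma, lowest adjusted p = 0.336). With them made equal, 245 of all tested genes were higher and 4710 lower at that unadjusted p (limma). Of the 5 regulators tested, 3 were above 0 and 1 had an unadjusted p under 0.05, Creb3l3, higher in the knockout (limma, log2 fold change 0.62, adjusted p = 0.282). Of 7 tested genes of lipid uptake and activation, 4 were above 0 and 1 had an unadjusted p under 0.05 (Slc27a4, a fatty acid transport protein).
Of 12 genes of triglyceride and sterol ester synthesis, 9 were above 0, and an unadjusted p under 0.05 was reached by 4 with the higher and 1 with the lower value in the knockout. Dgat2, an enzyme with the same reaction as Dgat1, was at an FPKM of 27.2, 16.3 and 16.3 in ApcMin/+ and 31.3, 36.4 and 27.6 in Ctnnb1Δi.enh;ApcMin/+ tumors, without overlap (limma, log2 fold change 0.69, standard error 0.22, adjusted p = 0.297). The lower gene was Lpin1, a phosphatidate phosphatase. Of 13 tested genes of chylomicron assembly and secretion, 11 were above 0 and 2 had an unadjusted p under 0.05, both higher, and none of these lists had an adjusted p under 0.05 for any gene.

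Over the 6 tumor libraries, the genes nearest to the mean profile of the 6 tested lipid absorption genes, among 5919 genes whose mean FPKM reached 10, were Lipa (0.09), Naip2 (0.10), Tm7sf3 (0.11), Ptprj (0.12) and Fcer1g (0.12). Their profile was high in ApcMin/+ replicate 1 and knockout replicate 2, as shown by Lipa at an FPKM of 17.1, 11.9 and 12.9 and 14.8, 22.1 and 15.2. Among the lipid absorption genes Mogat2 was nearest to this mean (0.22) and Fabp2 farthest (0.50).

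In the crypt table, Apoa4, Fabp2, Mttp and Mogat2 also overlap genes on the opposite strand, whose mean FPKM there was at most 1.94, far below the level of the 4 genes.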

How the data were processed

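FPKM values of 12 libraries were deposited by the authors in a table for each tissue. The methods name Hisat2 and featureCounts, and the submitters' processing notes list cutadapt, HISAT2, Cufflinks 2.2.1 and DESeq2; how the FPKM were computed is not given in the sources used here. Positions are those of GRCm38. FPKM multiplied by gene length were whole multiples of a step per library (100.0% of values above 0, within 0.05 of a whole number), which was taken as 1 fragment. Groups were taken from the sample labels, whose titles call the ApcMin/+ tumors WT and the Ctnnb1Δi.enh;ApcMin/+ tumors KO.
Within each table, genes whose mean FPKM reached 0.5 entered limma (version 3.58.1, R version 4.3.3), applied to log2(FPKM + 0.5) using a variance trend and no covariates, and p was adjusted by Benjamini-Hochberg at 0.05. Fold changes on this scale understate those of low genes. Single genes were also compared by an exact permutation test (scipy 1.17.1). The procedure was tested on simulated data. Named genes are the 10 lipid absorption genes, per list up to 3 genes with the smallest unadjusted p and those needed to describe it, the 5 genes nearest in profile, and marker genes that lead or define a list. Members and lists were chosen with earlier results of these data known. Alternatives covered the pseudocount, filter, scaling, variance trend, voom on recovered fragments, a replicate block and leaving out each library.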

Additional observations from a re-analysis of the deposited data

Results flagged for a closer look

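Lpin1, a phosphatidate phosphatase of triglyceride synthesis, lay higher in every Ctnnb1Δi.enh crypt library than in any wild-type library (log2 fold change 0.19; limma, unadjusted p = 0.270 and adjusted p = 0.907) and lower in every Ctnnb1Δi.enh;ApcMin/+ tumor than in any ApcMin/+ tumor (log2 fold change -0.33; limma, unadjusted p = 0.0443 and adjusted p = 0.339). Its FPKM was low, and the nearest crypt libraries of the 2 groups were at 1.42 and 1.43. Of all tested genes, 6.79% lay higher without overlap in crypts and 10.6% lower in tumors. The difference between the tissues was not tested, since their tables were normalized separately.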

How the results depend on the processing

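In crypts, 0 genes were called by limma as designed and 829 had an unadjusted p under 0.05. The calls were 17 with villus enterocyte markers made equal and 0 to 3 with a library left out, 3 of them without wild-type replicate 3. No lipid absorption gene was called in either tissue under any setting. At an unadjusted p under 0.05 there were 1349 genes without a filter, 276 with villus markers equal and 462 to 1344 with a library left out. The fold change of Apob turned to -0.0391 rescaled without the 50 highest genes, -0.11 with quantile normalization, -0.0369 with pan-epithelial markers equal and -0.19 with villus markers equal, and ran from -0.18 to 0.21 with a library left out. That of Apoa1 turned to -0.10 with villus markers equal and ran from -0.27 to 0.62. The median spread of the genes was 0.36 with quantile normalization, 0.36 with villus markers equal and 0.35 to 0.70 with a library left out; these settings of the spread were chosen after seeing the data.
In tumors, 1 gene was called without a variance trend and 0 otherwise. The unadjusted count was 2421 as designed, 4955 with pan-epithelial markers equal and 1399 to 2755 with a library left out. The median fold change of the lipid absorption genes was 0.16 without a filter, where 10 genes entered, 0.0191 when a mean FPKM of 1 was required, -0.26 with pan-epithelial markers equal, and -0.11 to 0.14 with a library left out. Dgat1 turned to -0.0242 rescaled to the same total, -0.0228 rescaled without the 50 highest genes, -0.0519 with quantile normalization, -0.23 with pan-epithelial and -0.0824 with villus markers equal, and ran from -0.0166 to 0.0732 with a library left out. Mogat2 turned to 0.00527 with quantile normalization and ran from -0.29 to 0.28, Cd36 from -0.20 to 0.10 and Apob from -0.0313 to 0.65. Of the fold changes of single genes, 115 of 120 in crypts and 65 of 71 in tumors kept their direction over 12 alternatives, and 56 of 60 and 30 of 36 with a library left out. The cause of these changes was not tested. Which direction held more genes at an unadjusted p under 0.05 moved with scaling: in crypts 494 higher and 335 lower as designed, 299 and 503 without the 50 highest genes; in tumors 1417 and 1004 as designed, 1075 and 1344 at the same total, 245 and 4710 with pan-epithelial markers equal. The median of all tested genes moved from 0.01 to -0.20 in crypts with villus markers equal and from 0.01 to -0.24 in tumors with pan-epithelial markers equal.
With a replicate block, 0 genes were called in either tissue, and 732 in crypts and 1882 in tumors had an unadjusted p under 0.05; with the block that p was 0.0515 for Mttp and 0.0456 for Dgat1 in crypts. For Apoa4, Apoc3 and Cd36 in crypts the unadjusted p in limma was 0.125, 0.175 and 0.138 with the block. As designed it was 0.302, 0.355 and 0.207. Deviations of libraries with the same number correlated at -0.05, -0.12 and 0.04 in crypts and 0.05, -0.09 and 0.05 in tumors. These correlations over all tested genes cannot exclude a pairing of the samples, which was not tested further. With 3 libraries a group, fold changes of genes with a wide spread are known only to within their standard errors, and tumor levels of Fabp1, Apoa4 and Apoc3 rest on 0 to 9 fragments.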
